A study of Mus musculus with 6 samples.

Results

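The mitochondrial protein import machinery was taken here as the protein-coding genes whose symbol starts with Timm or Tomm, together with Hspd1, Hspe1, Hspa9, Grpel1, Samm50, Pmpca, Pmpcb and Chchd4. The rule uses names and no measured value. It found 32 genes among the 18543 of the deposited count table, of which 13541 are protein coding, and all 32 passed the filter on low counts. Nearly all mitochondrial proteins are made in the cytosol and must cross the mitochondrial membranes. The TOM complex is the entry gate of the outer membrane, the small TIM chaperones escort hydrophobic proteins through the intermembrane space, and the TIM22 and TIM23 complexes insert or translocate proteins at the inner membrane. Behind TIM23 a motor built on the chaperone mortalin pulls the chain into the matrix, a peptidase removes the targeting sequence, and the HSP60 and HSP10 chaperonin folds the product. Choosing by name also took in Timmdc1, a complex I assembly factor of the inner membrane, and Tomm34, a cytosolic co-chaperone.

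RNA was measured in group 2 innate lymphoid cells (ILC2s), tissue lymphocytes that release type 2 cytokines in response to the alarmin IL-33. The libraries were 3 labelled Atg5-/- (KO 1, KO 2 and KO 3) and 3 labelled wild type (WT 1, WT 2 and WT 3), and Atg5 is a gene required to form autophagosomes. All of the C57BL/6 mice were aged 8 weeks, and all were given 0.5 µg of recombinant mouse IL-33 intranasally on 3 consecutive days before lung ILC2s were sorted on day 4, so there was no unstimulated group. Whether Atg5 was deleted in all cells or in some, and whether each library came from its own mouse, is left unsaid in the labels. The p-values therefore speak only of the spread among these libraries, which could be technical.

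The targeted gene went against a label. Atg5 was at 23.0, 25.6 and 52.2 CPM (counts scaled to library size by TMM) in libraries 1, 2 and 3 of the KO label, against 66.3, 71.8 and 21.8 CPM in libraries 1, 2 and 3 of the WT label. The library labelled WT 3 thus had the lowest level of all, and that labelled KO 3 had more than the others of its label. Across genes, log2 levels in the library labelled WT 3 correlated with those labelled KO 1 and KO 2 at r = 0.991 and 0.990, and with those labelled WT 1 and WT 2 at r = 0.946 and 0.948, as a description over genes that are not independent. Each library held 28827545 to 33662979 estimated counts, so that 3 counts are 0.0891 to 0.104 CPM. The results below are therefore given both with all 6 libraries and without the library labelled WT 3. That library was set aside with its values known, so the adjusted p-values without it do not account for the choice.

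Of the markers for the sorted cell type, all 10 ILC2 genes were in the table (Thy1 only at 0.670 to 2.87 CPM under the KO label and 1.76 to 9.85 CPM under the WT label), with summed levels of 8178 to 12161 CPM under the KO label and 12163 to 13626 CPM under the WT label. Most of the ILC2 sum was Il5, at 5352 to 9194 CPM under the KO label and 8242 to 9148 CPM under the WT label. The defining markers of B cells (2 of 4 in the table) summed to at most 0.654 CPM in any library. Those of macrophages and monocytes (5 of 6, with Mrc1 at 0 in all but KO 1 and KO 2) summed to 2.39 to 5.78 CPM under the KO label and 4.11 to 11.7 CPM under the WT label. Granulocyte and mast cell markers, of which 4 of 8 were in the table, summed to 0.542 to 3.88 CPM under the KO label and 4.01 to 10.4 CPM under the WT label. With all 6 libraries 0 of the 10 ILC2 markers were called (edgeR adjusted p under 0.05). Leaving out WT 3, 6 of them were called lower and 1 higher, beside 16.1% and 17.7% of all 14743 tested genes. Among them Klrg1 was at 174, 163 and 121 CPM under the KO label, against 526, 556 and 154 CPM under the WT label (libraries 1, 2 and 3 of each), and Il1rl1 at 456, 432 and 527 CPM under the KO label, against 973, 924 and 471 CPM under the WT label. Il13 went the other way, at 367, 367 and 286 CPM under the KO label, against 99.0, 117 and 355 CPM under the WT label. Gata3 and Ptprc of the ILC2 list, Cd3g of the T cell list and Cd68 of the macrophage and monocyte list also split as Klrg1 did. In each, the library labelled WT 3 was at or near the level of the KO label. Cd3g was not typical of its list. Without WT 3 it was the 1 T cell marker of 5 called lower (edgeR adjusted p under 0.05), and the other 4 had log2 fold changes above 0, with 0 called higher. Markers of other cells with a large split included Pecam1, at 107, 92.0 and 131 CPM under the KO label, against 10.4, 8.54 and 93.1 CPM under the WT label, and, the other way, Epcam, at 12.6, 13.7 and 8.90 CPM under the KO label, against 57.4, 52.3 and 14.3 CPM under the WT label. The lists they belong to summed to 92.0 to 131 CPM under the KO label and 8.57 to 93.6 CPM under the WT label for endothelium and fibroblasts (3 of 5 in the table), and to 8.90 to 29.0 CPM under the KO label and 14.9 to 58.2 CPM under the WT label for epithelium (3 of 4). Col1a1 and Col1a2 reached at most 0.542 and 0.331 CPM in any library, so the first sum was nearly all Pecam1. The epithelium sum was mostly Epcam except in KO 2, where Scgb1a1 made up most of the rest of the 29.0 CPM. In every other library Scgb1a1 was at 0.232 CPM or less. These sums therefore add little to the levels of Pecam1 and Epcam. T cell markers (5 of 6) summed to 23.9 to 25.3 CPM under the KO label and 22.6 to 41.6 CPM under the WT label, and red cell markers (4 of 4) to 7.75 to 8.45 CPM under the KO label and 5.83 to 10.9 CPM under the WT label. The part of these markers and cells in the import results was not tested. In such bulk samples fewer cells of a type and less RNA per cell cannot be told apart.

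With all 6 libraries, no import gene passed the threshold. The import genes as a whole summed to 5780, 5893 and 5341 CPM in libraries 1, 2 and 3 of the KO label, against 2657, 2849 and 5707 CPM in libraries 1, 2 and 3 of the WT label. The libraries labelled WT 1 and WT 2 were low, and that labelled WT 3 lay within the range of the KO label. By edgeR's quasi-likelihood test with Benjamini-Hochberg adjustment, 0 of 32 had an adjusted p under 0.05, and so had 0 of 14052 tested genes (0%). DESeq2 also called 0 of the 32 (background 2.62%), and so did limma-voom (background 0%). At an unadjusted p under 0.05, 4 import genes were higher under the KO label in edgeR (Timm9, Timm13, Tomm5 and Tomm20), beside 3.99% of all tested genes in that direction. The log2 fold change of KO over WT was above 0 for 28 of the 32, with a median of 0.38, beside 0.02 over all tested genes. In 7 genes every library labelled KO was above every library labelled WT (Timm10, Timm9, Tomm5, Tomm20, Timm13, Timm8b and Grpel1), and this was so for 9.26% of all tested genes. None lay wholly below (0 of 32, beside 9.22% of all tested genes), and 25 overlapped.

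Without the library labelled WT 3, 23 of the 32 import genes rose under the KO label (edgeR adjusted p under 0.05), and 0 fell. The background in that comparison was 17.7% of 14743 tested genes higher and 16.1% lower. The median log2 fold change of the import genes was 0.61, beside 0.02 over all tested genes. DESeq2 without that library likewise called 23 higher, with a background of 17.4%. Leaving out instead any other single library gave 0 calls. Every library labelled KO was above both of those labelled WT 1 and WT 2 in 26 genes, which held for 30.6% of all tested genes. The level in the library labelled WT 3 was nearer to the mean of KO 1 and KO 2 than to the mean of WT 1 and WT 2 in 30 of the 32. The same count over all tested genes was not made, so it shows nothing particular to import genes. The median import gene differed by -0.04 (log2) between the library labelled WT 3 and the mean of those labelled KO 1 and KO 2, and by 0.62 between it and the mean of those labelled WT 1 and WT 2. Over all tested genes these medians were -0.00200 and 0.00181. Signed medians over all genes are held near 0 by the scaling and by genes going either way. They do not show that genes outside the import set were alike between these libraries.

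**Figure D1:**
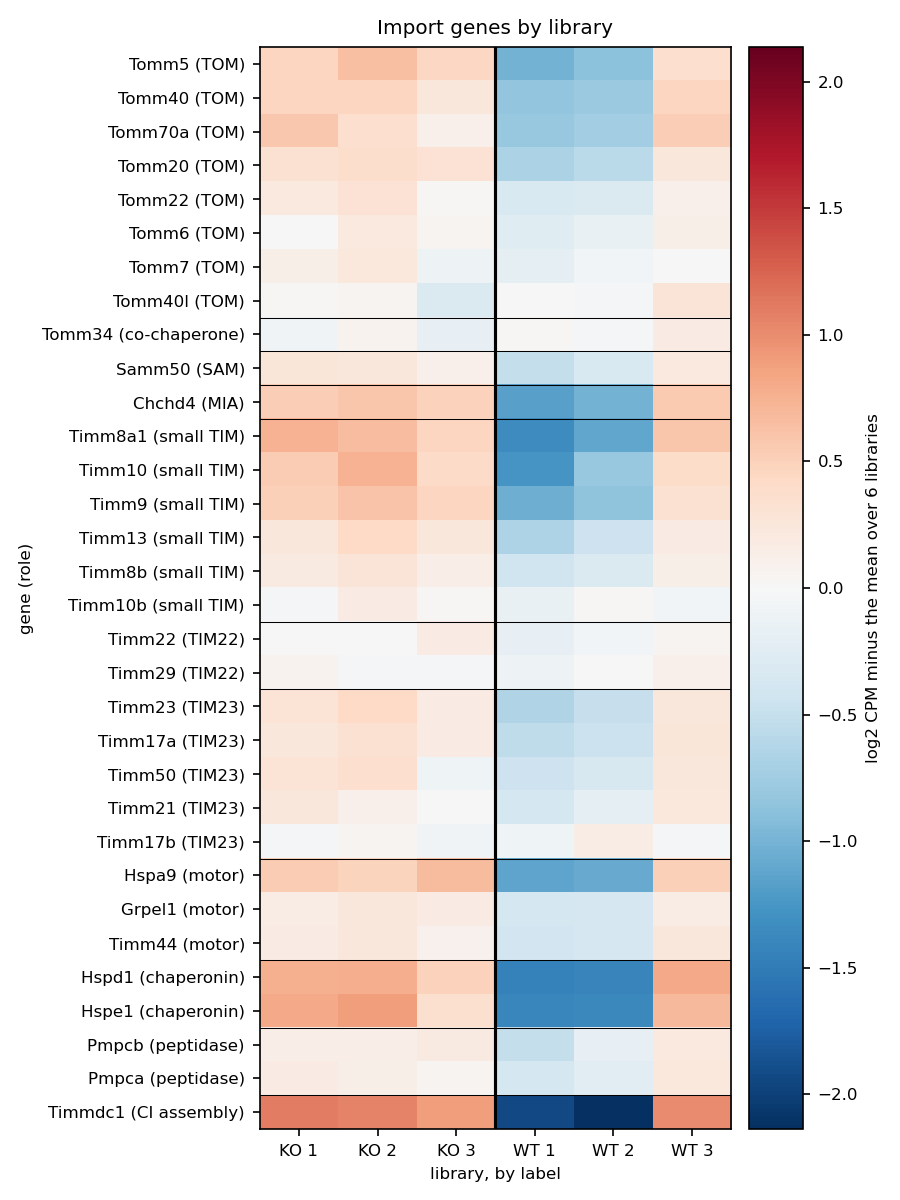
Level of the 32 import genes in each library, as log2 CPM minus the gene's mean over the 6 libraries, in order of role; the vertical line parts the KO label (left) from the WT label (right). The columns labelled WT 1 and WT 2 are low for most genes, and the column labelled WT 3 looks like those labelled KO.

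Without the library labelled WT 3, both genes of the matrix chaperonin rose, with a median log2 fold change of 2.11. Hspd1 encodes HSP60, the barrel in which imported proteins fold, and Hspe1 encodes HSP10, its lid. Values under each label run in the order of libraries 1, 2 and 3. Hspd1 had 828, 839 and 689 CPM under the KO label, against 180, 183 and 851 CPM under the WT label. Hspe1 had 247, 261 and 178 CPM under the KO label, against 53.4, 54.2 and 227 CPM under the WT label. For both genes the libraries labelled WT 1 and WT 2 lay well below the others and the labels overlapped through WT 3. With all 6 libraries the log2 fold changes were 0.96 ± 0.61 for Hspd1 and 1.03 ± 0.58 for Hspe1 (SE; edgeR adjusted p = 0.415 and 0.380). Set against WT 1 and WT 2 alone, Hspd1 rose by 2.12 ± 0.12 (log2, SE; edgeR adjusted p = 5.87e-05) and Hspe1 by 2.09 ± 0.18 (adjusted p = 0.000252), which are folds of 4.35 and 4.27. The 2 genes stand head to head on mm10 chromosome 1, Hspd1 at 55077835 to 55088243 on the minus strand with 12 exons and Hspe1 at 55088132 to 55091307 on the plus strand with 4 exons, and share 112 bases at their 5′ ends. No source used here says whether reads were counted by strand, so reads from these shared bases cannot be assigned. A processed pseudogene of Hspd1, Hspd1-ps3, held 3.18% to 3.68% of their summed counts, and adding it left the log2 difference from WT 1 and WT 2 at 2.11.

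The import motor rose as well without the library labelled WT 3, in all 3 of its genes. Hspa9, which encodes mortalin, the matrix HSP70 that pulls the incoming chain, had 944, 904 and 1036 CPM under the KO label, against 296, 308 and 929 CPM under the WT label. The KO label was above WT 1 and WT 2 throughout, with WT 3 inside its range. Grpel1, the nucleotide exchange factor of mortalin, had 148, 156 and 149 CPM under the KO label, against 101, 102 and 147 CPM under the WT label. Timm44, which docks mortalin to the TIM23 channel, had 62.9, 66.2 and 59.8 CPM under the KO label, against 42.3, 43.5 and 66.4 CPM under the WT label. Grpel1 did not overlap between the labels, although its WT 3 level was just under the lowest KO level, and Timm44 overlapped. Without WT 3 the log2 fold changes were 1.68 ± 0.10 for Hspa9, 0.58 ± 0.09 for Grpel1 and 0.56 ± 0.11 for Timm44 (SE; edgeR adjusted p = 6.62e-05, 0.00238 and 0.00675). With all 6 libraries they were 0.91 ± 0.45, 0.37 ± 0.18 and 0.31 ± 0.20 (adjusted p = 0.359, 0.355 and 0.418). Hspd1, Hspe1 and Hspa9 together summed to 2018, 2003 and 1903 CPM under the KO label, against 529, 545 and 2007 CPM under the WT label. The other 29 genes summed to 3761, 3889 and 3438 CPM under the KO label, against 2129, 2304 and 3700 CPM under the WT label, so the shift was not carried by the 3 chaperones alone.

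**Figure D2:**
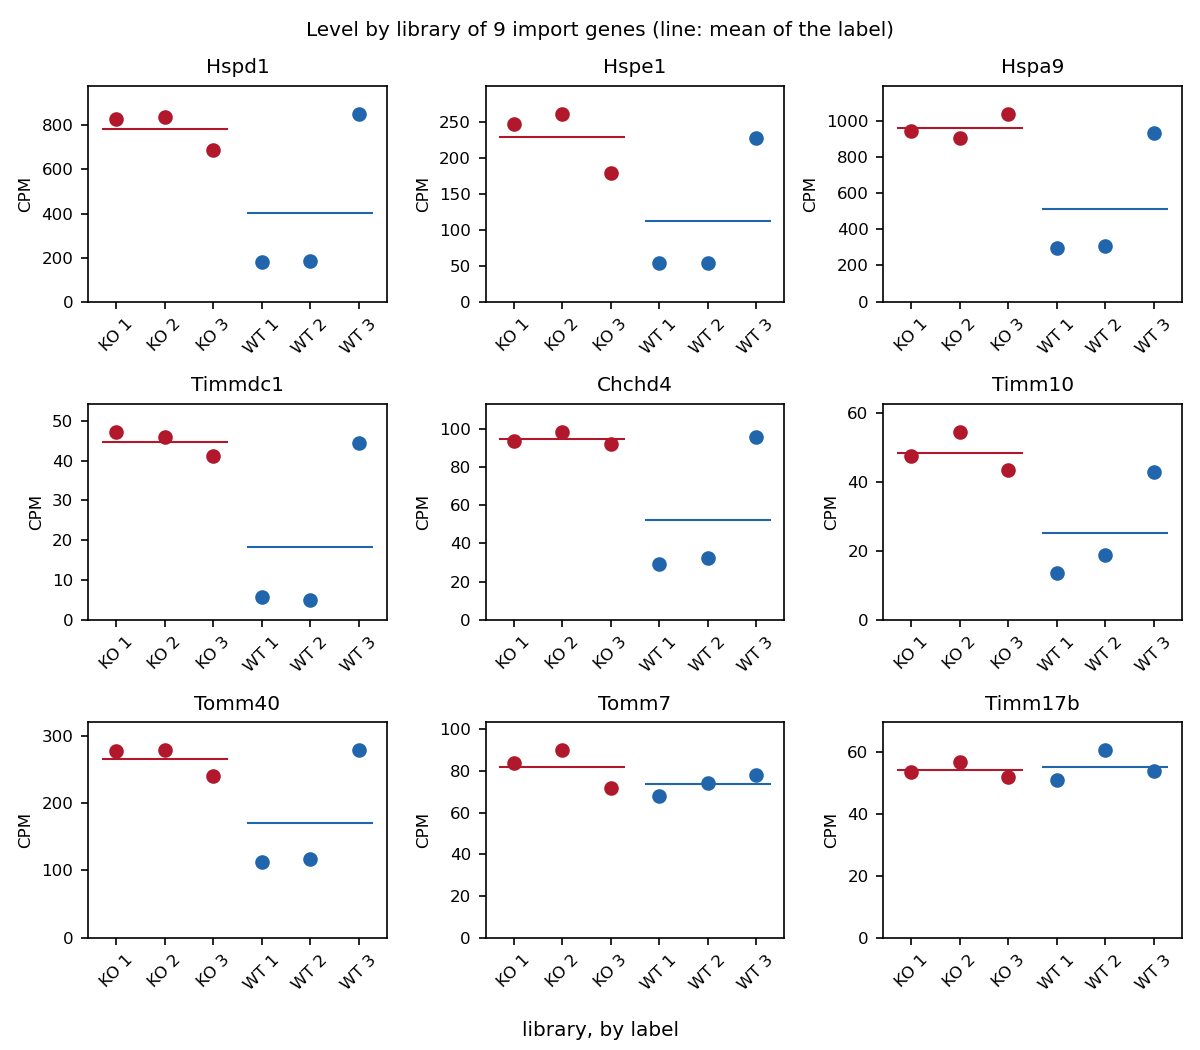
CPM of 9 import genes in each library (points; red, KO label; blue, WT label), with the mean of each label as a line. For Hspd1 the library labelled WT 3 is at 851 CPM beside 180 and 183 CPM in WT 1 and WT 2, whereas Tomm7 and Timm17b differ little between libraries.

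Among the subunits of the outer membrane gate, 5 of 8 rose without the library labelled WT 3. Tomm40, the channel, had 277, 278 and 240 CPM under the KO label, against 113, 117 and 278 CPM under the WT label. Tomm20, the receptor for presequences, had 236, 243 and 231 CPM under the KO label, against 117, 126 and 221 CPM under the WT label. Tomm70a, the receptor for carrier proteins, had 315, 270 and 228 CPM under the KO label, against 121, 126 and 303 CPM under the WT label. In each of these genes WT 1 and WT 2 were the lowest libraries, and only Tomm20 was separated by label in all 6. Tomm22, the central receptor and organizer, had 161, 172 and 141 CPM under the KO label, against 111, 112 and 149 CPM under the WT label. Tomm5, a small subunit of the complex, had 177, 202 and 176 CPM under the KO label, against 63.9, 70.5 and 165 CPM under the WT label. Of the 5, Tomm5 differed most from WT 1 and WT 2, and its KO libraries were all above WT 3 as well. Without WT 3 the log2 fold changes were 1.47 ± 0.11 for Tomm5, 1.21 ± 0.10 for Tomm40, 1.14 ± 0.14 for Tomm70a, 0.97 ± 0.09 for Tomm20 and 0.51 ± 0.11 for Tomm22 (SE). Their edgeR adjusted p-values were 0.000172, 0.000268, 0.00117, 0.000328 and 0.0112, and with all 6 libraries 0.343, 0.379, 0.428, 0.344 and 0.357. Of the summed counts of Tomm20 and its 2 near copies in the table, 22.6% to 24.2% lay in the copies, so its level is less certain than the others, while its log2 difference from WT 1 and WT 2 was 0.95 with the copies and 0.96 without.

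The 3 other TOM genes did not pass. Tomm6, a small subunit known in yeast to stabilize the complex, had 98.6, 113 and 102 CPM under the KO label, against 81.9, 87.9 and 106 CPM under the WT label. Tomm7, another small subunit, had 84.0, 90.1 and 71.8 CPM under the KO label, against 68.0, 74.4 and 78.2 CPM under the WT label. Both overlapped, with log2 fold changes without WT 3 of 0.31 ± 0.10 and 0.21 ± 0.13 (SE; edgeR adjusted p = 0.0584 and 0.247), and with all 6 libraries of 0.18 ± 0.15 and 0.16 ± 0.14 (adjusted p = 0.505 and 0.542). Tomm40l, a paralog of the channel gene, had 40.5, 41.6 and 32.2 CPM under the KO label, against 40.1, 38.9 and 48.7 CPM under the WT label, a log2 difference of -0.05 ± 0.15 without WT 3 (adjusted p = 0.846) and -0.16 ± 0.17 with all 6 (adjusted p = 0.601). Tomm34, the cytosolic co-chaperone that binds HSP70 and HSP90, had 90.2, 100.2 and 83.8 CPM under the KO label, against 96.4, 93.0 and 107 CPM under the WT label. Its log2 fold change without WT 3 was -0.04 ± 0.11 (edgeR adjusted p = 0.789), and with all 6 libraries -0.11 ± 0.13 (adjusted p = 0.646). Neither gene passed in either comparison. Tomm6 overlaps Tomm6os on the opposite strand by 777 bases, but Tomm6os held only 13.1 to 30.5 counts per library.

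Samm50, the core of the complex that assembles barrel proteins in the outer membrane, had 201, 198 and 181 CPM under the KO label, against 118, 135 and 194 CPM under the WT label. Chchd4, which encodes the oxidoreductase MIA40 that traps cysteine-rich proteins in the intermembrane space, had 93.9, 98.4 and 92.2 CPM under the KO label, against 29.1, 32.3 and 95.7 CPM under the WT label. Both were lowest in WT 1 and WT 2 and overlapped through WT 3. Chchd4 rose by 1.63 ± 0.11 and Samm50 by 0.62 ± 0.10 without WT 3 (log2, SE; edgeR adjusted p = 0.000116 and 0.00349). With all 6 libraries the log2 fold changes were 0.86 ± 0.45 and 0.38 ± 0.20 (adjusted p = 0.368 and 0.372).

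Of the 6 small TIM chaperones, many of them substrates of MIA40, 5 rose without the library labelled WT 3. Timm9 had 68.3, 73.4 and 66.0 CPM under the KO label, against 23.2, 26.6 and 60.4 CPM under the WT label. Timm10, which forms the main escort complex with Timm9, had 47.3, 54.3 and 43.4 CPM under the KO label, against 13.6, 18.6 and 42.7 CPM under the WT label. The labels did not overlap in either gene, with WT 3 just below the lowest KO library. Timm8a1, whose human homolog is mutated in deafness-dystonia syndrome, had 115, 110 and 95.8 CPM under the KO label, against 27.3, 31.9 and 105 CPM under the WT label. Timm13, its partner, had 170, 193 and 170 CPM under the KO label, against 90.8, 105 and 161 CPM under the WT label. Timm8b, a relative of Timm8a1, had 53.2, 56.3 and 51.2 CPM under the KO label, against 34.5, 37.7 and 50.7 CPM under the WT label. WT 3 was inside the KO range for Timm8a1 and below it for Timm13 and Timm8b. Without WT 3 the log2 fold changes were 1.86 ± 0.13 for Timm8a1, 1.59 ± 0.19 for Timm10, 1.48 ± 0.12 for Timm9, 0.87 ± 0.11 for Timm13 and 0.58 ± 0.11 for Timm8b (SE). The edgeR adjusted p-values were 0.000149, 0.000855, 0.000245, 0.0013 and 0.00802, and with all 6 libraries 0.366, 0.346, 0.342, 0.342 and 0.350. Timm10b, the member that links the escort complex to TIM22, had 69.5, 79.97 and 71.8 CPM under the KO label, against 62.9, 72.1 and 67.9 CPM under the WT label, and did not pass (log2 fold change without WT 3 of 0.13 ± 0.12, edgeR adjusted p = 0.423, and with all 6 of 0.13 ± 0.13, adjusted p = 0.591). For Timm8a1 a near copy, Gm9797, held 25.4% to 30.6% of the summed counts, and for Timm10b the overlapping gene Gm45799 on the same strand held 5.89% to 17.0%.

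At the inner membrane, the 2 genes of the carrier translocase did not pass. Timm22, its channel, had 51.7, 51.4 and 58.4 CPM under the KO label, against 45.4, 49.5 and 53.4 CPM under the WT label. Timm29, a subunit of the same complex, had 49.4, 45.7 and 45.6 CPM under the KO label, against 43.7, 46.9 and 50.8 CPM under the WT label. Their labels overlapped, and the log2 fold changes without WT 3 were 0.19 ± 0.12 and 0.06 ± 0.11 (SE; edgeR adjusted p = 0.263 and 0.744), and with all 6 libraries 0.12 ± 0.13 and -0.01 ± 0.13 (adjusted p = 0.616 and 0.978).

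Of the 5 genes of the presequence translocase, 3 rose without the library labelled WT 3. Timm23, the gene that names the channel, had 340, 374 and 315 CPM under the KO label, against 179, 198 and 332 CPM under the WT label. Timm17a, a core subunit in one version of the channel, had 203, 215 and 193 CPM under the KO label, against 118, 124 and 205 CPM under the WT label. Timm50, the receptor that takes presequences over from TOM, had 166, 175 and 129 CPM under the KO label, against 100.5, 108 and 161 CPM under the WT label. In all 3 the library labelled WT 3 lay inside the KO range. Without it the log2 fold changes were 0.87 ± 0.11 for Timm23, 0.75 ± 0.09 for Timm17a and 0.60 ± 0.14 for Timm50 (SE; edgeR adjusted p = 0.00106, 0.00102 and 0.0182), and with it 0.54 ± 0.25, 0.45 ± 0.23 and 0.35 ± 0.22 (adjusted p = 0.354, 0.366 and 0.417). Timm17b, the paralog of Timm17a on the X chromosome, had 53.5, 56.6 and 51.9 CPM under the KO label, against 50.8, 60.5 and 53.8 CPM under the WT label. Timm21, known in yeast for linking the channel to the respiratory chain, had 38.8, 35.3 and 32.6 CPM under the KO label, against 25.3, 28.7 and 38.1 CPM under the WT label. Neither passed, with log2 fold changes without WT 3 of -0.04 ± 0.12 and 0.40 ± 0.14 (edgeR adjusted p = 0.849 and 0.0643) and with all 6 libraries of -0.03 ± 0.13 and 0.21 ± 0.19 (adjusted p = 0.916 and 0.545). Near copies of Timm23 held 17.2% to 19.9% of the summed counts, and its log2 difference from WT 1 and WT 2 was 0.89 with them and 0.86 without.

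The presequence peptidase has a catalytic subunit, Pmpcb, and a partner that binds the substrate, Pmpca. Pmpcb had 71.3, 71.0 and 73.5 CPM under the KO label, against 45.6, 57.0 and 74.7 CPM under the WT label. Pmpca had 232, 225 and 213 CPM under the KO label, against 159, 176 and 241 CPM under the WT label. In both genes WT 3 was the highest of the 6 libraries and WT 1 the lowest. Without WT 3 both rose, by 0.49 ± 0.12 and 0.42 ± 0.09 (log2, SE; edgeR adjusted p = 0.0210 and 0.0123), the smallest changes among the 23 called genes. Neither passed with all 6 libraries, at 0.28 ± 0.19 and 0.22 ± 0.18 (adjusted p = 0.436 and 0.522).

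Timmdc1, on mm10 chromosome 16 at 38498347 to 38522663 (minus strand, 7 exons), had the largest fold of all 32. It had 47.2, 46.1 and 41.1 CPM under the KO label, against 5.77, 5.01 and 44.3 CPM under the WT label. The libraries labelled WT 1 and WT 2 were far below the other 4, which lay within 41.1 to 47.2 CPM. Without WT 3 it rose by 3.06 ± 0.16 (log2, SE; edgeR adjusted p = 5.03e-05), an 8.34-fold difference, and with all 6 libraries the log2 fold change was 1.29 ± 0.81 (adjusted p = 0.411). Its name apart, the protein acts in assembly of complex I and not in import.

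**Figure D3:**
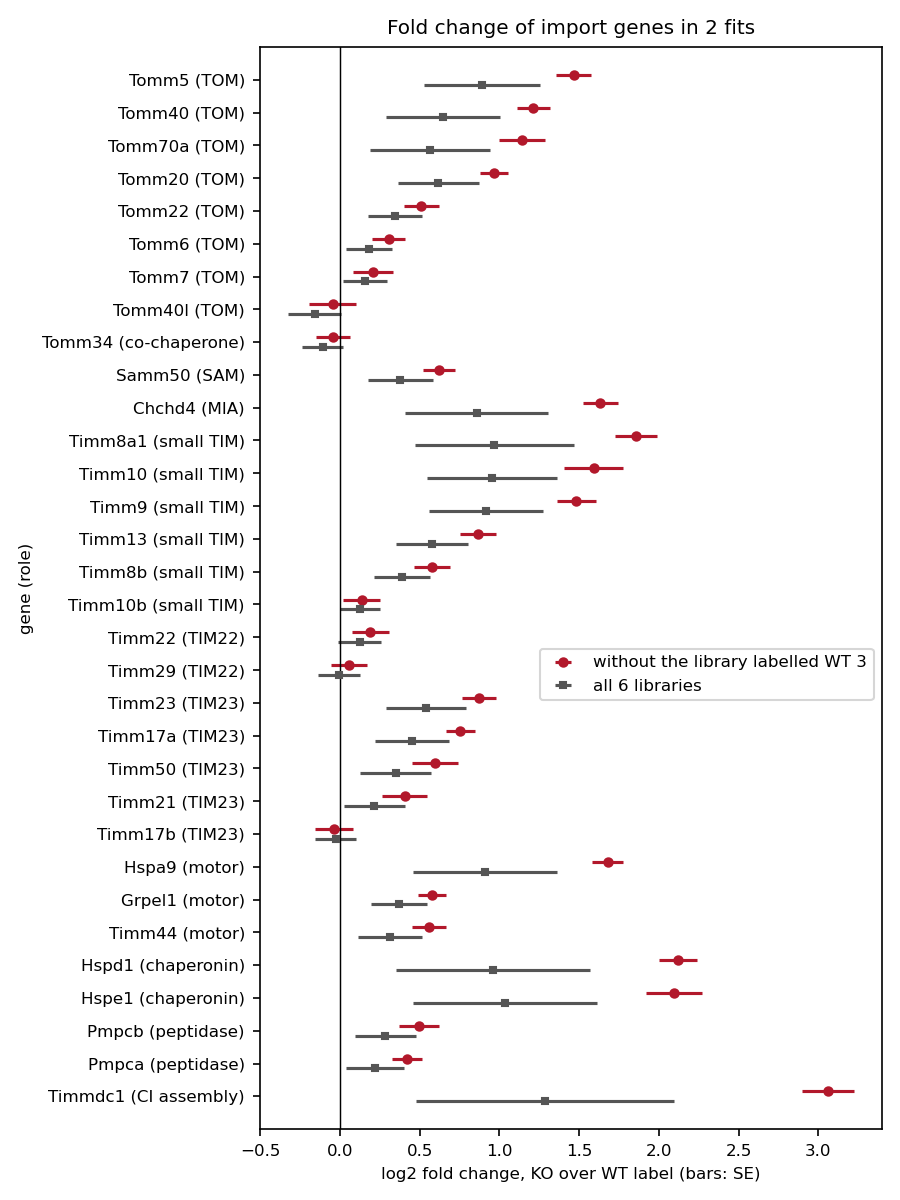
Log2 fold change of KO over WT label for each import gene, in order of role, with the SE as bars: circles, without the library labelled WT 3; squares, all 6 libraries. Timmdc1, Hspd1 and Hspe1 reach 2.09 to 3.06 without that library, and Timm29 and Timm17b lie within 0.06 of 0 in both.

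The library labelled KO 3 had the highest Atg5 level of its label, and was lower than its label's others in many import genes. A link between these was not tested. KO 3 was the lowest of the KO libraries in 25 of the 32 and the highest in 3. Hspa9 was among the exceptions, with its highest level there. How often KO 3 was lowest or highest over all tested genes was not counted. The median log2 difference of the import genes in KO 3 from the mean of KO 1 and KO 2 was -0.11, beside 0.00160 over all tested genes, where genes higher and lower cancel. Across all tested genes KO 3 correlated with KO 1 and KO 2 at r = 0.979 and 0.980, and those 2 with each other at r = 0.990. Leaving out both libraries numbered 3, 26 of the 32 import genes rose (edgeR adjusted p under 0.05; background 22.7% of 14315 genes) and the median log2 fold change was 0.69. The 3 added calls were Timm21, Tomm6 and Tomm7 (edgeR adjusted p = 0.0163, 0.0193 and 0.0272). The libraries labelled WT 1 and WT 2 were alike but not the same, with WT 1 below WT 2 in 29 of the 32 (not counted over all tested genes).

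Scaled to transcript length, the most abundant import messages under the KO label were Hspd1, at 324 ± 34.5 CPM per kilobase, Hspa9, at 315 ± 22.2, Hspe1, at 295 ± 56.9, and Timm23, at 293 ± 25.4 (SD, n = 3 each). Under the WT label the same genes were at 167 ± 159.5, 168 ± 119, 144 ± 129 and 201 ± 70.9 CPM per kilobase (SD, n = 3 each). Under the KO label these 4 do not differ from each other beyond their spread. In WT 1 and WT 2 alone the order was another, with Timm23 at 153 and 169 CPM per kilobase, Hspa9 at 97.1 and 100.9, Hspd1 at 74.1 and 75.6, and Hspe1 at 69.0 and 70.02. Tomm5 followed at 250 ± 19.9 CPM per kilobase under the KO label and 135 ± 76.7 under the WT label (86.6 and 95.5 in WT 1 and WT 2). The least abundant was Tomm40l, at 8.08 ± 1.09 CPM per kilobase under the KO label and 9.04 ± 1.13 under the WT label, below Timm21, at 14.7 ± 1.29 under the KO label and 12.7 ± 2.74 under the WT label, and Timm29, at 14.8 ± 0.682 under the KO label and 14.9 ± 1.13 under the WT label. The length used is that of 1 annotated transcript per gene, so the order between near neighbours is approximate.

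Ratios between partner genes within a library need no scaling between libraries. The log2 ratio of Hspd1 to Hspe1 (each CPM plus 0.5) was 1.74, 1.68 and 1.95 under the KO label, against 1.74, 1.75 and 1.90 under the WT label (difference of the means -0.01), although WT 1 and WT 2 had much less of both genes. That of Pmpca to Pmpcb was 1.69, 1.65 and 1.53 under the KO label, against 1.79, 1.62 and 1.68 under the WT label. By the two-sided exact permutation test over 3 against 3 libraries, which cannot go below p = 0.1, these gave p = 0.9 and 0.5, and no test of this size can show that a ratio is the same. Without the library labelled WT 3 the differences were 0.05 and -0.08 (exact permutation p = 1 and 0.6, with 0.2 the smallest possible when the smaller tail is doubled).

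For none of the pairs of paralogs did the difference pass. The log2 ratio of Tomm40 to Tomm40l was 2.76, 2.73 and 2.88 under the KO label, against 1.48, 1.58 and 2.503 under the WT label, and did not overlap (difference 0.93, exact permutation p = 0.1, the smallest possible). That of Timm8a1 to Timm8b was 1.11, 0.95 and 0.90 under the KO label, against -0.33, -0.23 and 1.04 under the WT label (difference 0.83, exact permutation p = 0.3). That of Timm17a to Timm17b was 1.92, 1.92 and 1.89 under the KO label, against 1.21, 1.03 and 1.92 under the WT label (difference 0.52, exact permutation p = 0.4). In these 3 pairs the libraries labelled WT 1 and WT 2 had the lowest ratios. The log2 ratio of Grpel1 to Grpel2, its paralog outside the set, was 1.93, 2.14 and 1.76 under the KO label, against 2.16, 2.54 and 1.82 under the WT label (difference -0.23, exact permutation p = 0.4). Adjusted over the 6 pairs by Benjamini-Hochberg, the 5 smaller exact p-values were all 0.6 and that of Hspd1 to Hspe1 was 0.9. Without the library labelled WT 3 the differences were larger, at 1.26 for Tomm40 to Tomm40l, 1.27 for Timm8a1 to Timm8b, 0.78 for Timm17a to Timm17b and -0.41 for Grpel1 to Grpel2. Each had an exact permutation p of 0.2, and 0.3 after adjustment over the 6 pairs. With the smaller tail doubled, 0.2 is the smallest that 3 against 2 libraries allow.

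**Figure D4:**
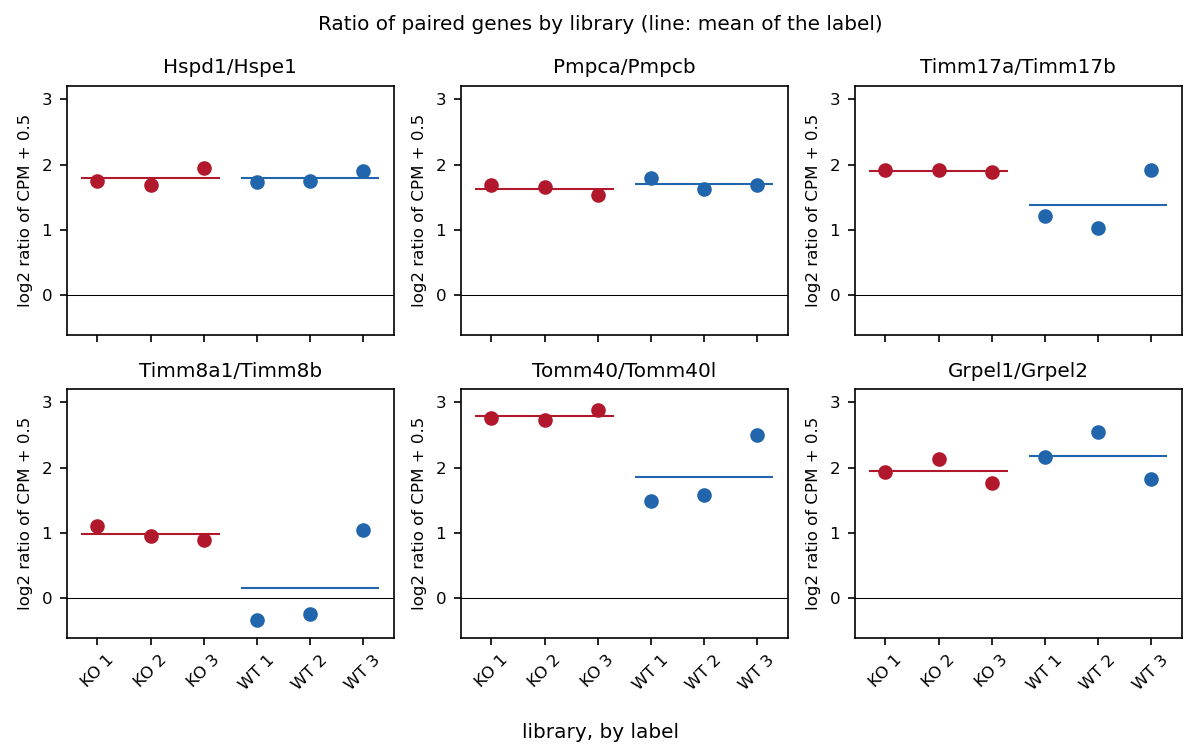
Log2 ratio of CPM plus 0.5 between 6 pairs of genes in each library (points; red, KO label; blue, WT label), with the mean of each label as a line. Hspd1/Hspe1 stays between 1.68 and 1.95, while Tomm40/Tomm40l runs from 1.48 to 2.88.

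RefSeq promoter windows on GRCm38.p6 (the assembly also called mm10), running from 250 bases before to 50 after the annotated start, were at hand for 28 of the 32 genes. Printed are those of the chaperonin pair, of the escort pair Timm9 and Timm10, and of Timmdc1, the gene with the largest fold. Capitals mark an E-box (CACGTG), the ETS letters (CCGGAAGT) or the heat shock letters (GAANNTTC), searched on both strands. They are chr1:55088194-55088493 (minus strand) for Hspd1, chr1:55087898-55088197 (plus) for Hspe1, chr12:71136626-71136925 (minus) for Timm9, chr2:84826771-84827070 (plus) for Timm10 and chr16:38522614-38522913 (minus) for Timmdc1, each written 5′ to 3′.
Hspd1: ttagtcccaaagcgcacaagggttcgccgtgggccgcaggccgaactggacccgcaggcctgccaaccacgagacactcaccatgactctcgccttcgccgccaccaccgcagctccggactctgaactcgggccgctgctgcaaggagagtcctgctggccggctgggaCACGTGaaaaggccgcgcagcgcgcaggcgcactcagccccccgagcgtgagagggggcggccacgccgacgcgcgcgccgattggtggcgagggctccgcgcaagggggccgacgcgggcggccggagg
Hspe1: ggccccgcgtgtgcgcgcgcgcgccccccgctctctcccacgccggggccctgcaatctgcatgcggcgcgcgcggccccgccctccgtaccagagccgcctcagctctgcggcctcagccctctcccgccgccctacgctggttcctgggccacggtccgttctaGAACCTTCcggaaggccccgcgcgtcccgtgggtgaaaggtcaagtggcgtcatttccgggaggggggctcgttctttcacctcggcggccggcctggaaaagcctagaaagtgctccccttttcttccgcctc
Timm9: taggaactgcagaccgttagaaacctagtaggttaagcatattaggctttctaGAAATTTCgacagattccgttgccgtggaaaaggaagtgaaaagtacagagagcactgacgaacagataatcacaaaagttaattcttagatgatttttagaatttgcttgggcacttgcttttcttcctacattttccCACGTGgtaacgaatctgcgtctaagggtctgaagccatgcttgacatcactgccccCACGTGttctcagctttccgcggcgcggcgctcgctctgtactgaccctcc
Timm10: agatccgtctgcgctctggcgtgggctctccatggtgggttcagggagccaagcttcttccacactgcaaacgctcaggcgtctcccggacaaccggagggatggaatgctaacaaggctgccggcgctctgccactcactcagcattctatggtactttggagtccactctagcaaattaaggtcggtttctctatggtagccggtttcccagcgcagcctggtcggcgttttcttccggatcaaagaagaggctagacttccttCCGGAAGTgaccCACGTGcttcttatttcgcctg
Timmdc1: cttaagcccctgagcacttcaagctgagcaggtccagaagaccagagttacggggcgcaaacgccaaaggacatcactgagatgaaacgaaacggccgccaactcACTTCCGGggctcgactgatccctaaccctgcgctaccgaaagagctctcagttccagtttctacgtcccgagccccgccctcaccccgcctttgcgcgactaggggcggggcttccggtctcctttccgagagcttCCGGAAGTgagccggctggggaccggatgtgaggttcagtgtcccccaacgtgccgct
Counting the first transcribed base as 1, the E-box of Hspd1 begins at -80, those of Timm9 at -58 and -1, and that of Timm10 at 29. The heat shock letters begin at -84 in Hspe1 and -197 in Timm9, and the ETS letters at 17 in Timm10 and at -145 (reverse strand) and -8 in Timmdc1. No printed match overlaps another.

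An E-box was in 5 of the 28 windows (17.9%; Hspd1, Timm8a1, Timm9, Timm10 and Tomm20), beside 7.24% of all 27025 gene windows and 10.4% of the 9648 windows of tested genes. All 5 of these genes rose without the library labelled WT 3, but so did 23 of all 32 import genes. A link between any of these letters and the change was not tested. The ETS letters were in 7 of 28 (25%), beside 4% of all windows and 9.04% of those of tested genes. Of these 7 genes, Timmdc1, Timm10, Tomm70a, Timm23 and Pmpcb rose without WT 3, and Timm10b and Timm29 did not pass. The heat shock letters were in 7.14%, beside 7.95% of all windows and 5.56% of those of tested genes. Only this order of their outer letters was searched, so the swapped order, and longer runs alternating them, were not counted. In the printed windows of Hspe1 and Timm9 such a run goes beyond the capitals, on both sides in Hspe1 and before them in Timm9. How common such longer runs are in other windows was not tested. The CCAAT box (CCAAT) was in 32.1%, beside 37.9% of all windows and 39.1% of those of tested genes. The NRF1 core (CGCATGCG) was in 1 window, that of Timm13 (3.57%, beside 1.91% of all windows and 4.15% of those of tested genes). Only these exact letters were searched, so other forms of an NRF1 site, in these or other windows, were not counted. The cyclic AMP response letters (TGACGTCA) and the ATF4 composite letters (TGATGNAA) were in 0 of 28 windows, beside 1.88% and 4.06% of all windows. These matches are descriptions of letters in short windows and show no binding.

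Genes that serve import or processing but lie outside the naming rule were 22, and in the comparison without WT 3, 14 of them rose and 1 fell, with a median log2 fold change of 0.52. The background there was 17.7% of all tested genes higher and 16.1% lower. With all 6 libraries 0 of 22 were called by edgeR, DESeq2 or limma-voom, and 3 had an unadjusted p under 0.05 in edgeR. Those 3 were Pam16, a regulator of the import motor, Gfer, the oxidase that recycles MIA40, and Immp1l, a protease of the inner membrane. Pam16 had 54.2, 55.8 and 53.6 CPM under the KO label, against 27.8, 28.2 and 48.2 CPM under the WT label. Gfer had 47.5, 53.9 and 43.9 CPM under the KO label, against 31.6, 31.9 and 41.4 CPM under the WT label. In both, every library labelled KO was above every library labelled WT, beside 9.26% of all tested genes. Both were picked by p in the same libraries, so this separation adds no support. Immp1l had 68.3, 74.5 and 60.1 CPM under the KO label, against 43.9, 39.4 and 61.0 CPM under the WT label, and overlapped through WT 3. Without WT 3 their log2 fold changes were 0.97 ± 0.11, 0.62 ± 0.13 and 0.71 ± 0.13 (SE; edgeR adjusted p = 0.000759, 0.0108 and 0.00613). The exception that fell was Mtch1, a relative of the outer membrane insertase Mtch2, by 0.40 ± 0.10 (log2, SE; edgeR adjusted p = 0.0240), while with all 6 its log2 fold change was -0.29 ± 0.16 (adjusted p = 0.372). Its level was 142, 131 and 118 CPM under the KO label, against 171, 174 and 134 CPM under the WT label, and the labels overlapped through WT 3.

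Other nuclear genes of the mitochondrion leaned the same way without the library labelled WT 3. The background of the counts called there was 17.7% of all tested genes higher and 16.1% lower. Of 12 protease and prohibitin genes of the organelle, 7 rose and 0 fell, with a median log2 fold change of 0.53. Lonp1, the matrix protease, had 339, 352 and 511 CPM under the KO label, against 154, 159 and 351 CPM under the WT label. Phb, a prohibitin scaffold gene of the inner membrane, had 265, 276 and 223 CPM under the KO label, against 95.5, 104 and 241 CPM under the WT label. Htra2, a protease of the intermembrane space, had 147, 142 and 115 CPM under the KO label, against 88.2, 87.6 and 129 CPM under the WT label. The libraries labelled WT 1 and WT 2 were lowest in all 3 genes. Of 78 mitochondrial ribosomal protein genes 53 rose and 1 fell (median 0.54), and of 45 genes for complex I subunits and assembly factors 25 rose and 1 fell (median 0.40). The mitochondrial ribosomal genes with the lowest p in all 6 libraries were Mrpl21 (80.4, 83.7 and 73.9 CPM under the KO label, against 46.5, 50.01 and 66.0 CPM under the WT label), Mrpl54 (85.3, 93.3 and 89.4 CPM under the KO label, against 50.2, 55.1 and 76.0 CPM under the WT label) and Mrps10 (113, 109.5 and 111 CPM under the KO label, against 49.6, 53.1 and 95.6 CPM under the WT label). In all 3, every library labelled KO was above every library labelled WT, beside 9.26% of all tested genes. They were picked by p in the same libraries, so this separation adds no support. The adjusted p from edgeR was 0.342 for each with all 6. Of the complex I list, Ndufaf5 had 26.2, 23.4 and 23.3 CPM under the KO label, against 12.3, 12.6 and 21.1 CPM under the WT label. Ndufa7 had 117, 124 and 115 CPM under the KO label, against 77.8, 90.2 and 105 CPM under the WT label, and Ndufs8 had 149, 153 and 150.5 CPM under the KO label, against 91.4, 92.4 and 141 CPM under the WT label. These too were separated by label in all 6, and they too were picked by p in those libraries.

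The cytosolic chaperonin, which folds proteins outside the organelle, had all 7 of its tested genes called higher without the library labelled WT 3. Their median log2 fold change was 1.09, and 17.7% of all tested genes were called higher. Cct5 had 897, 919 and 834 CPM under the KO label, against 386, 414 and 878 CPM under the WT label. Cct2 had 367, 387 and 352 CPM under the KO label, against 170.4, 167 and 378 CPM under the WT label, and Cct4 had 561, 512 and 488 CPM under the KO label, against 239, 261 and 530.4 CPM under the WT label. In all 3 genes the libraries labelled WT 1 and WT 2 were lowest and WT 3 lay inside the KO range. The 13 protein genes of the mitochondrial genome itself went the other way, with 0 called higher and 8 lower (background 16.1% lower). Their median log2 fold change was -1.08. Thus mt-Co1 had 387, 517 and 767 CPM under the KO label, against 1713, 1252 and 468 CPM under the WT label, and mt-Cytb had 249, 312 and 395 CPM under the KO label, against 1051, 774 and 298 CPM under the WT label. For mt-Atp6 the levels were 206, 257 and 298 CPM under the KO label, against 523, 438 and 244 CPM under the WT label. For these 3 genes the libraries labelled WT 1 and WT 2 were highest and that labelled WT 3 lay within the KO range. With all 6 libraries 0 genes of any of these lists were called by edgeR, DESeq2 or limma-voom.

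**Figure D5:**
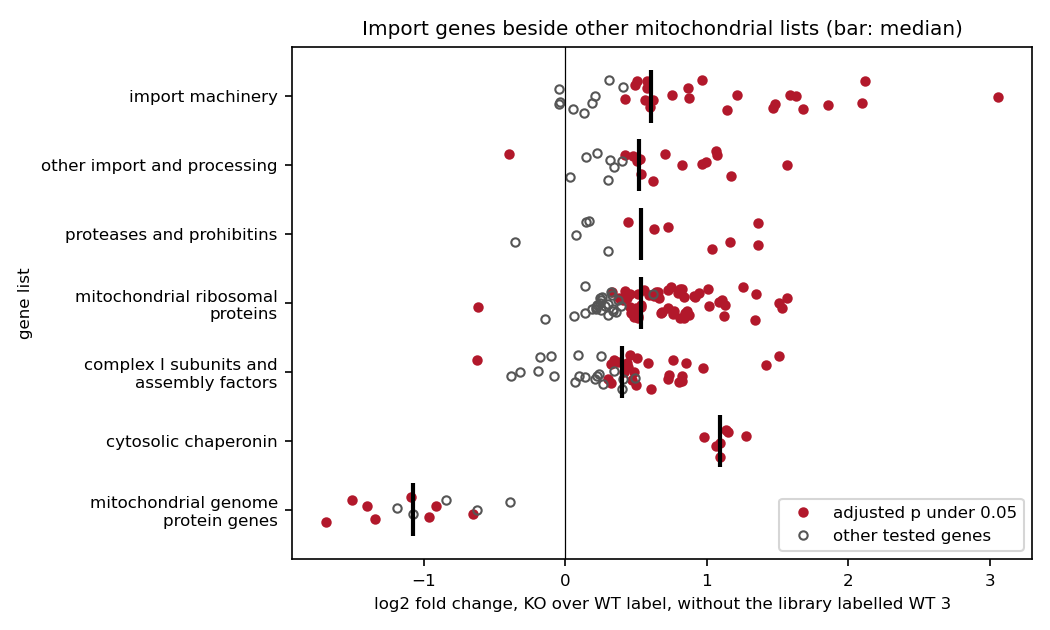
Log2 fold change of KO over WT label without the library labelled WT 3, for each tested gene of the import machinery and of 6 other lists (filled, edgeR adjusted p under 0.05; open, other genes; bar, median). The medians are 0.61 for the import genes, 0.54 for mitochondrial ribosomal proteins, 1.09 for the cytosolic chaperonin and -1.08 for the genes of the mitochondrial genome.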

How the data were processed

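Messenger RNA was measured in sorted lung ILC2s, in 3 libraries labelled Atg5-/- and 3 labelled wild type, grouped and numbered by the sample titles. Gene-level estimated counts were deposited by the authors, beside a second table of normalized signal (the same counts, raised by 1 and scaled by a factor for each library) that served only in an alternative. Tools listed in the submitters' processing notes are Partek, STAR and CASAVA 1.8.2, with mm10 as the build. No source used here says how multi-mapping reads were shared or whether counting used strand, so near copies and overlapping genes are uncertain.

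After rounding of the estimated counts, all genes were fitted together with edgeR 4.0.16 in R 4.3.3 (TMM, filterByExpr, robust quasi-likelihood fit, no covariate), with Benjamini-Hochberg adjustment over all tested genes and a threshold of 0.05. The SE is the size of the log2 fold change divided by the square root of F. The fit was tested on simulated data with known fold changes. No simulated library was made to depart from its label, so that test does not cover a library such as WT 3. The targeted gene, marker lists and gene lists were handled alike. CPM use TMM library sizes. A floor of 3 counts reflects counting error alone, because no molecular identifiers are mentioned and reads need not be independent molecules. Near copies were GENCODE vM21 genes with at least 90% identity over at least 80% of their length. Alternatives were other scalings and filters, DESeq2 1.42.0, limma-voom (limma 3.58.1), limma-trend on log2 of the authors' signal plus 1, non-robust dispersion, a replicate block, each library left out, both libraries numbered 3 left out, and, added after seeing the data, DESeq2 without the library labelled WT 3. The members and lists were chosen with earlier results of these data known. The named genes are all members, the 3 of lowest p with all 6 libraries in each other list, and Atg5. Mtch1 and the single markers printed were added after their values were seen.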

Additional observations from a re-analysis of the deposited data

How the results depend on the processing

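The 0 import genes called with all 6 libraries stayed at 0 under 3 other scalings, 2 other filters, DESeq2, limma-voom, limma-trend on the authors' signal, non-robust dispersion and the replicate block. Leaving out 1 library gave 0 to 23 import genes, 0 to 15 other import and processing genes and 0 to 4991 genes in all, with the highest value of each only without the library labelled WT 3. Without both libraries numbered 3 these counts were 26, 18 and 6505, with a median log2 fold change of 0.69 for the import genes. With DESeq2 without the library labelled WT 3 they were 23, 15 and 5609, and with DESeq2 on all 6 libraries 362 genes in all were called. The cause was not tested. Whether replicate numbers pair the samples was not settled. Correlations of same-numbered deviations from the label means were -0.0367, 0.0196 and -0.00776. They cannot decide it, because WT 3 dominates the deviations within the WT label. With the replicate block the median was 0.41 and 0 were called.

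The log2 difference of the Hspd1 to Hspe1 ratio turned to 0.00859 with a pseudocount of 2 CPM, and ran from -0.0823 to 0.0486 when 1 library was left out. Genes near 0 also turned sign. Timm17b ran from -0.108 to 0.0455 and Timm29 from -0.0841 to 0.0564 when 1 library was left out, Timm29 was 0.0781 without both libraries numbered 3 and 0.0302 with DESeq2 without WT 3, and Tomm34 and Tomm40l were 0.0155 and 0.0630 without both libraries numbered 3. Of the other values for single genes under the alternatives, 496 kept their direction and side of the threshold and 72 passed it. Depth limited none of the import genes, whose lowest level was 5.01 CPM.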

Other observations

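Some mitochondrial chaperone and J-domain genes outside the naming rule are named here after their values were seen. Without WT 3 they moved about as far as Tomm40, Tomm70a and Tomm20, and less than Hspd1, Hspe1 and Hspa9. Trap1, the mitochondrial HSP90, had 193, 195 and 184 CPM in libraries 1, 2 and 3 of the KO label, against 84.6, 85.3 and 198 CPM in libraries 1, 2 and 3 of the WT label. Dnaja3, a J-domain partner of mortalin, had 136, 137 and 135 CPM under the KO label, against 60.0, 70.2 and 146 CPM under the WT label. Dnajc11, a J-domain protein of the membranes, had 131, 137 and 123 CPM under the KO label, against 64.9, 59.7 and 139 CPM under the WT label. In each gene the library labelled WT 3 was the highest of all 6 and those labelled WT 1 and WT 2 the lowest. Without WT 3 the log2 fold changes were 1.17 ± 0.09 for Trap1, 1.07 ± 0.10 for Dnaja3 and 1.07 ± 0.10 for Dnajc11 (SE; edgeR adjusted p = 0.000171, 0.000412 and 0.000368), and with all 6 libraries 0.63 ± 0.34, 0.56 ± 0.33 and 0.56 ± 0.33 (adjusted p = 0.372, 0.390 and 0.386). The J-domain genes Dnajc19 and Dnajc15, whose products sit at the motor, did not pass without WT 3 (edgeR adjusted p = 0.124 and 0.131) but did without both libraries numbered 3 (adjusted p = 0.0143 and 0.0112), with Dnajc19 at 60.6, 66.9 and 53.1 CPM under the KO label, against 47.6, 50.8 and 56.7 CPM under the WT label, and Dnajc15 at 46.4, 51.9 and 38.6 CPM under the KO label, against 34.5, 37.7 and 38.7 CPM under the WT label.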
